A study of Mus musculus with 6 samples.

Results

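The genes described here are 9 markers of the thalamus, Tcf7l2, Prkcd, Lef1, Slc17a6, Ramp3, Rgs16, Ntng1, Synpo2 and Rora, measured by RNA sequencing of the mouse hippocampus. They were picked by symbol, and all 9 were found among the 16060 rows of the deposited gene table. The list was drawn up with the values of these same libraries known, so the difference between the groups and the agreement of the genes across libraries are given for the members as a description, with no test. Hippocampus was taken from adult male C57BL/6 mice. The 3 Control libraries came from mice injected with saline, and the 3 MA libraries from mice given methamphetamine (MA) intraperitoneally at 5 mg/kg in week 1, 10 mg/kg in week 2 and 15 mg/kg in week 3, with behavioral tests on day 22 before the animals were killed. Mice of both groups were injected and went through the behavioral tests, and no transgene is named for any of them. The comparison of MA with Control addresses which genes differ in the hippocampus in a mouse model of anxiety-like behavior made by repeated MA.

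The thalamus is the relay of the forebrain, whose excitatory neurons send sensory and motor signals to the cortex, and it lies directly beneath the hippocampus in the mouse. Most of its relay neurons keep the transcription factors Tcf7l2 and Lef1 into adulthood, both of which bind DNA as the nuclear end of the Wnt/beta-catenin pathway. They load glutamate into vesicles with VGLUT2, the product of Slc17a6, whereas pyramidal and granule cells of the hippocampus mainly use VGLUT1, the product of Slc17a7. None of the 9 genes is restricted to the thalamus: Tcf7l2 is also known from oligodendrocytes, Lef1 from brain endothelium, and Rora from interneurons and astrocytes.

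The Wnt factors among the members bind a short core with the letters TCAAAG, which reads as CTTTGA on the other strand, and the promoters that hold these letters are shown because both factors are themselves members. RefSeq promoter windows of 300 bases, 250 before and 50 after each annotated start, were found for all 9 members on GRCm38.p6, 15 windows in total. The core was present in windows of 2 of the 9 members, Prkcd and Lef1, and in 18.2% of the 27025 genes with a window. The Lef1 window belongs to a start inside the gene, and its other 3 windows lacked the core. The 250 bases before the start are printed, with the core in capitals.
Prkcd, chr14:30626209-30626458 of GRCm38.p6, minus strand: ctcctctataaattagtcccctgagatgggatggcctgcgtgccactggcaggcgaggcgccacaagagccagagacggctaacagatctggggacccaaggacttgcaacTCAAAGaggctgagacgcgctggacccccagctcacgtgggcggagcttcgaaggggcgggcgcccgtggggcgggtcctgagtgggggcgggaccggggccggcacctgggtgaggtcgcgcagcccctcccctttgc
Lef1, chr3:131156044-131156293 of GRCm38.p6, plus strand: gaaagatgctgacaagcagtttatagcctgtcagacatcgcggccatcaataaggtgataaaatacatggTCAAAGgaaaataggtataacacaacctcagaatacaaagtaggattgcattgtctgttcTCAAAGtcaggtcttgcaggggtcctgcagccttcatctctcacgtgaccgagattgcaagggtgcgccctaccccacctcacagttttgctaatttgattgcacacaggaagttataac
In Prkcd the core began at position -139 from the start, and in Lef1 at -180 and -120. The element AGGTCA, whose letters on the other strand are TGACCT and which nuclear receptors of the ROR family such as Rora bind, was present in windows of 0 of the 9 members and in 18.1% of all genes with a window. Shares of this size for 9 genes do not set the members apart from other genes, and a match of letters is not a binding site. On GRCm38 (GENCODE M21, matched on the Ensembl identifier and given for location only), the transcription factor genes are Tcf7l2 (ENSMUSG00000024985) on chromosome 19 from 55741820 to 55933654, Lef1 (ENSMUSG00000027985) on chromosome 3 from 131110471 to 131224356 and Rora (ENSMUSG00000032238) on chromosome 9 from 68653786 to 69388246. The transport and signalling genes are Slc17a6 (ENSMUSG00000030500) on chromosome 7 from 51622006 to 51671119, Prkcd (ENSMUSG00000021948) on chromosome 14 from 30595354 to 30626210, Ramp3 (ENSMUSG00000041046) on chromosome 11 from 6658521 to 6677475 and Rgs16 (ENSMUSG00000026475) on chromosome 1 from 153740349 to 153745468. The adhesion and cytoskeletal genes are Ntng1 (ENSMUSG00000059857) on chromosome 3 from 109780040 to 110144011 and Synpo2 (ENSMUSG00000050315) on chromosome 3 from 123076519 to 123236149. The members lie on 7 chromosomes, and Ntng1, Synpo2 and Lef1 share chromosome 3.

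The values are on a log scale, read as log2 of RPKM plus 1, where RPKM is a read count scaled by gene length and by the mapped reads of the library. All 6 libraries had the same highest value, 12.30, by a step between libraries that is not described. Back-transformed values may therefore not be plain RPKM. The table gives no read totals, and sequencing depth is therefore unknown. For the labelled tissue, 12 markers of hippocampal principal cells were read, and all were present in every library. Their back-transformed RPKM summed to between 382 and 486 in the Control libraries and between 369 and 421 in the MA libraries. The thalamic members were also present in every library, so presence alone does not identify the tissue. The library labelled MA replicate 3 stood apart from the others: its mean Pearson correlation with the other libraries of its group, across 13321 tested genes, was 0.978, against 0.984 to 0.993 for the other 5, and 38.3% of the tested genes were lower in it than in all 3 Control libraries. The difference of each member is therefore also given without it.

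All 9 members had a higher mean in the MA group, and in none did the groups separate. The mean MA minus Control difference ran from 0.20 for Rora to 0.91 for Tcf7l2 on the log2 scale, around a median of 0.48 (all tested genes: -0.010). MA replicates 1 and 2 were the highest pair of the 6 libraries in 8 of the 9 members and in 16.2% of all tested genes, and MA replicate 3 was above all Control libraries in 0 of the 9. The shift in the means was thus carried by MA replicates 1 and 2. A mean above that of Control was found in 47.3% of all tested genes, a difference over 0.2 in 13.1% of them and in 8 of the 9 members, and groups that do not overlap, with MA higher, in 7.32%. Without MA replicate 3 the groups did not overlap in 8 of the 9 members, with MA higher, and in 20.8% of all tested genes. Because the members were chosen with this contrast known, nothing is read from these shares. As the RNA comes from whole tissue, more cells of a type and more RNA per cell cannot be told apart.

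**Figure D1:**
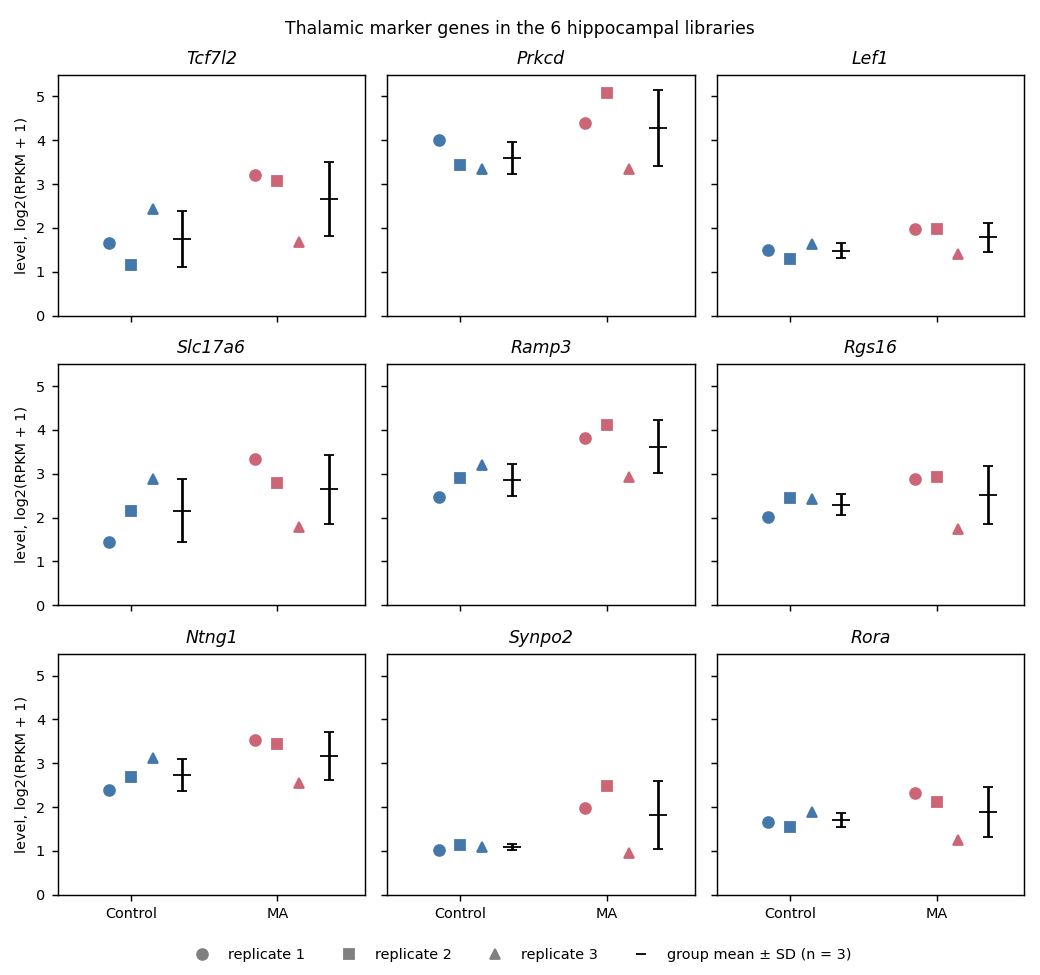
Level of each of the 9 thalamic marker genes, as log2(RPKM + 1), in the 3 Control (blue) and 3 MA (red) libraries, with marker shape for the replicate number and the group mean ± SD in black. MA replicates 1 and 2 lie at the top of nearly every panel, whereas MA replicate 3 (triangle) lies among or below the Control libraries.

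Of the transcription factors, Tcf7l2, the TCF family member that marks thalamic relay neurons, had log2 levels of 1.66, 1.15 and 2.43 in Control replicates 1, 2 and 3 and of 3.21, 3.08 and 1.68 in MA replicates 1, 2 and 3. Both MA replicates 1 and 2 exceeded every Control library, and MA replicate 3 was level with Control replicate 1. The group means were 1.74 ± 0.64 and 2.66 ± 0.85 (SD, n = 3 each), a difference of 0.91, and in back-transformed RPKM the means were 2.58 and 5.98, a 2.31-fold difference. Without MA replicate 3 the difference was 1.40, but it was 0.61 without Control replicate 2 and 0.63 without MA replicate 1.

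Lef1, the partner factor of the same pathway, ran at 1.50, 1.30 and 1.64 in the Control libraries and at 1.98, 1.96 and 1.40 in MA, in log2 units and in replicate order. The same pair of MA libraries was on top, with a narrower span than for any other member, 0.68 from the lowest to the highest library. The means were 1.48 ± 0.17 and 1.78 ± 0.33 (SD, n = 3 each), a difference of 0.30, or 0.50 without MA replicate 3 and 0.20 without MA replicate 1. Rora, a nuclear receptor gene, was at 1.66, 1.56 and 1.88 in Control and at 2.32, 2.12 and 1.25 in MA. Its MA libraries enclosed the Control libraries on both sides, since MA replicate 3 was the lowest of the 6. Its difference of 0.20, the smallest of the 9, was within the SD of the MA group, 0.57, and was 0.52 without MA replicate 3. It came to 0.13 without Control replicate 2, 0.086 without MA replicate 2 and -0.014 without MA replicate 1, which turned its direction.

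Slc17a6, which encodes the vesicular glutamate transporter VGLUT2, had log2 levels of 1.45, 2.14 and 2.89 in the Control libraries and of 3.34, 2.79 and 1.79 in the MA libraries. It was the exception to the common highest pair, because Control replicate 3 lay above MA replicate 2. Mean levels were 2.16 ± 0.72 and 2.64 ± 0.79 (SD, n = 3 each) and lay 0.48 apart, less than the SD of either group. Without MA replicate 3 the difference was 0.91 and without Control replicate 3 it was 0.85, but it was 0.13 without Control replicate 1 and 0.13 without MA replicate 1. The hippocampal transporter gene Slc17a7 lay between 9.09 and 9.38 on the same log2 scale in all 6 libraries.

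Prkcd, which encodes protein kinase C delta and is widely used to label sensory relay nuclei, was the most abundant member in both groups. Its log2 levels were 4.01, 3.44 and 3.34 in Control and 4.39, 5.07 and 3.35 in MA, with means of 3.60 ± 0.36 and 4.27 ± 0.87 (SD, n = 3 each). MA replicate 2 was the highest and MA replicate 3 was level with the lowest Control library. The difference was 0.68, or 1.13 without MA replicate 3 and 0.28 without MA replicate 2. Back-transformed, the mean RPKM was 11.4 in Control and 20.6 in MA.

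Ramp3, whose product escorts the calcitonin receptor-like receptor to the cell surface, was at 2.47, 2.90 and 3.20 in Control and at 3.80, 4.10 and 2.93 in MA on the log2 scale. It was the member in which MA replicate 3 stood highest relative to the Control mean, 0.076 above it. The means of 2.86 ± 0.37 and 3.61 ± 0.61 (SD, n = 3 each) differed by 0.76, and by 1.10 without MA replicate 3. They differed by 0.56 without Control replicate 1 and by 0.51 without MA replicate 2. Rgs16, a regulator that shortens G-protein signalling, was at 2.01, 2.45 and 2.42 in Control and at 2.87, 2.93 and 1.74 in MA. Here MA replicate 3 stood furthest below the Control mean, at -0.55. The difference between the means was 0.22, under the SD of either group (0.25 and 0.67), and 0.61 without MA replicate 3. It was close to 0 when other single libraries were left out, at 0.011 without MA replicate 2, 0.041 without MA replicate 1 and 0.077 without Control replicate 1.

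Ntng1, which encodes netrin-G1, a membrane-anchored adhesion protein of thalamic axons, had log2 levels of 2.39, 2.68 and 3.11 in Control and of 3.54, 3.44 and 2.55 in MA. MA replicate 1 was the highest library and Control replicate 3 the highest of its group, as for Tcf7l2 and Slc17a6. The means were 2.73 ± 0.36 and 3.18 ± 0.55 (SD, n = 3 each), a difference of 0.45 that became 0.76 without MA replicate 3, 0.28 without Control replicate 1 and 0.27 without MA replicate 1. Synpo2, an actin-binding protein gene, was the lowest and the least variable member in Control, at 1.02, 1.14 and 1.10, and reached 1.99 and 2.48 in MA replicates 1 and 2 against 0.96 in MA replicate 3. Its fold was the largest of the 9: the mean back-transformed RPKM was 1.13 in Control and 2.83 in MA, 2.51-fold. On the log2 scale the difference was 0.72, with an SD of 0.059 in Control and 0.78 in MA, and it was 1.15 without MA replicate 3 and 0.39 without MA replicate 2.

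Ranked by mean log2 level in Control, a scale that already divides by gene length, the order was Prkcd, Ramp3, Ntng1, Rgs16, Slc17a6, Tcf7l2, Rora, Lef1 and Synpo2. Neighbours differed by more than the larger of their SDs at 4 of the 8 steps, from Prkcd to Ramp3, from Ntng1 to Rgs16, from Rora to Lef1 and from Lef1 to Synpo2. The other steps were within the spread. All 9 passed the filter on low values, and the lowest single value was a back-transformed RPKM of 0.948, for Synpo2 in MA replicate 3. Lef1, Ramp3, Rgs16 and Rora each share exon sequence with an annotated gene on the other strand, and whether reads were counted by strand is not stated, so their levels may include reads of those genes.

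The members were alike in which libraries stood highest, and less so in the order of the others. When each was centred and scaled to an SD of 1 over the 6 libraries, all 9 were above their own mean in MA replicate 1 and in MA replicate 2, and 0 of the 9 in MA replicate 3. In Control replicates 1 and 2 it was 1 of the 9 each (Prkcd in replicate 1, Rgs16 in replicate 2), and in Control replicate 3 it was 6 of the 9. MA replicate 1 was the highest library for 5 members and MA replicate 2 for 4, and the lowest was MA replicate 3 for 3, Control replicate 1 for 3, Control replicate 2 for 2 and Control replicate 3 for 1. Control replicate 3 was the highest of the Control libraries in 6 of the 9. The SD was larger in the MA group than in the Control group for all 9, with a median of 0.67 against 0.36. Over all tested genes the median SD was likewise larger in MA, at 0.17 against 0.10.

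**Figure D2:**
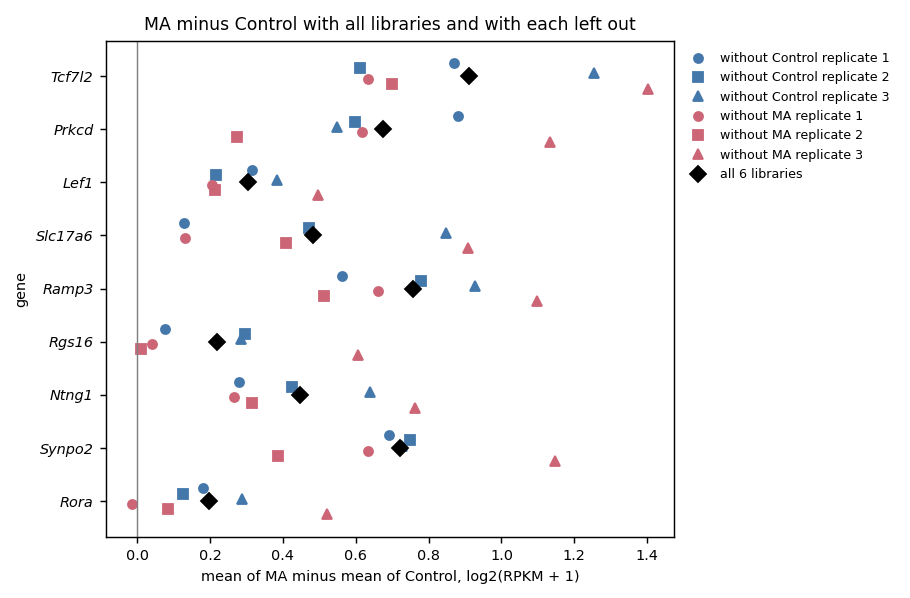
Mean of MA minus mean of Control in log2(RPKM + 1) for each member with all 6 libraries (black diamond) and with each library left out in turn (blue for a Control library left out, red for an MA library). Leaving out MA replicate 3 gives the largest difference for every member, from 0.50 for Lef1 to 1.40 for Tcf7l2, and Rora is at -0.014 without MA replicate 1.

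A list of 17 further genes known from the thalamus, none of them a member, was examined in the same libraries. All 17 were in the table, Patj under its older symbol Inadl, and 14 passed the filter. The mean was higher in MA for 17 of 17, with a median difference of 0.38 over the 14 tested, against -0.010 over all tested genes, and of 0.52 without MA replicate 3. None of the 14 passed an adjusted p of 0.05 (limma with Benjamini-Hochberg adjustment over 13321 genes), a threshold that 0.263% of all tested genes passed. An unadjusted p under 0.05 was reached by 6 of the 14, all higher in MA, and by 4.99% of all tested genes in that direction. Without MA replicate 3, 2 of the 14 passed the adjusted threshold, Tnnt1 and Shox2, against 1.93% of all tested genes. This list was also drawn up with results of these libraries known, and its genes come from the same 6 mice, so it is no independent support.

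Tnnt1, a troponin gene strongly expressed in thalamic nuclei, had the largest difference of the list and the highest pair of most members. Its log2 levels were 2.17, 1.99 and 2.41 in Control and 4.12, 4.69 and 2.20 in MA. MA replicates 1 and 2 stood far above the Control libraries and MA replicate 3 among them, and the difference was 1.48 (standard error 0.57, limma adjusted p = 0.435). Gbx2, a homeobox factor of developing and adult thalamus that was too low to be tested, showed 0.52, 0.12 and 0.33 in Control and 1.44, 1.70 and 0.52 in MA. Zic1, a zinc finger factor of dorsal and medial nuclei, differed by 0.82 (standard error 0.31, limma adjusted p = 0.432), and MA replicates 1 and 2, at 3.32 and 3.02, again led. MA replicates 1 and 2 were the highest pair in 13 of the 17 genes. Among the 14 tested it was 10, against 16.2% of all tested genes. All 3 MA libraries were above all Control libraries in 6 of the 17, and in 7.32% of all tested genes. These were Calb2, Cacna1g, Zic4, Patj and the untested Gbx2 and Six3. In no other gene of the list was MA replicate 3 above all Control libraries. MA replicate 3 was below all of them in 6, and in 38.3% of all tested genes.

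Calb2, the calretinin gene, which hippocampal interneurons and mossy cells also express, was at 3.69, 3.92 and 4.87 in Control and at 5.98, 5.61 and 5.21 in MA. The same MA pair led, but here MA replicate 3 was above all Control libraries as well, and the difference was 1.44 (standard error 0.32, limma adjusted p = 0.203). The 4 genes with another order at the top were Zic4, Cacna1g, Vipr2 and Ptpn3, named here after their values were seen. Zic4 and Cacna1g, a T-type calcium channel gene, were highest in MA replicate 3, with differences of 0.78 and 0.50 (limma adjusted p-values of 0.160 and 0.383). Vipr2, a receptor gene for vasoactive intestinal peptide, differed by 0.25 and Ptpn3, a phosphatase gene, by 0.030 (limma adjusted p-values of 0.777 and 0.974), and in each a Control library ranked second.

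**Figure D3:**
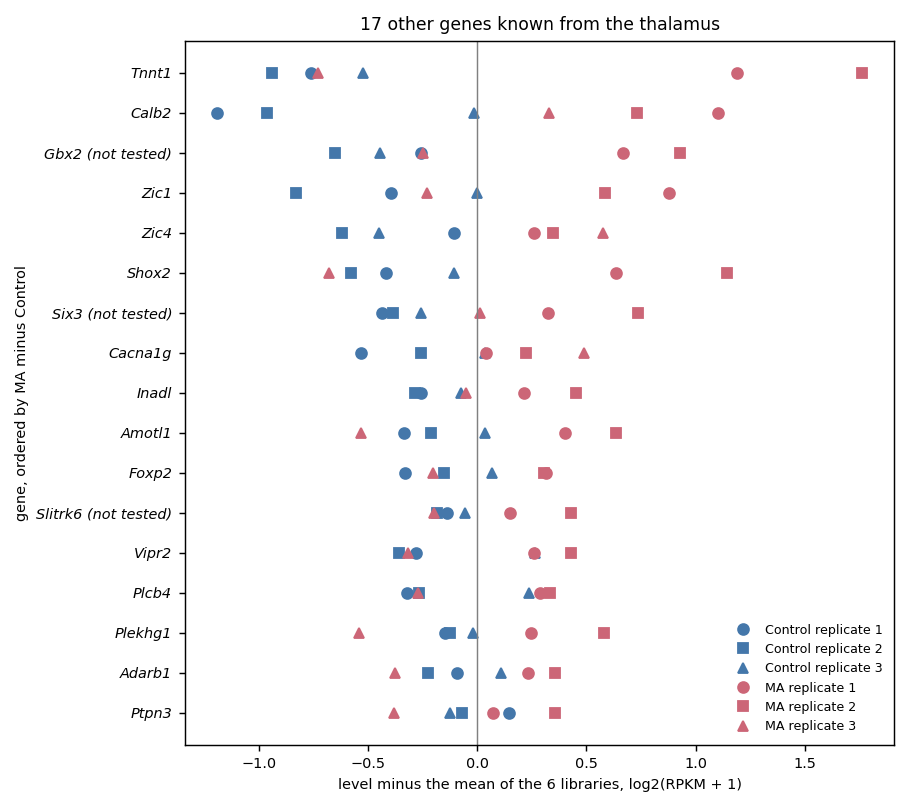
Level of 17 other genes known from the thalamus in each library, as log2(RPKM + 1) minus the gene's mean over the 6 libraries, for Control (blue) and MA (red), with marker shape for the replicate number. MA replicates 1 and 2 lie to the right in most rows, from Tnnt1 at the top (difference 1.48) to Ptpn3 at the bottom (0.030), while MA replicate 3 lies to the left in many.

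Among 14 genes of the same families as the members but on neither list of thalamic genes, the pattern was not seen. Whether the thalamus expresses them was not examined. The mean was higher in MA for 3 and lower for 11, against 47.3% higher over all tested genes. The median difference was -0.086 (all tested genes: -0.010). MA replicates 1 and 2 were the highest pair in 2, and in 16.2% of all tested genes. None of the 14 passed the adjusted threshold in limma, and an unadjusted p under 0.05 was reached by 1 gene higher and 3 genes lower in MA, against 10.4% of all tested genes in either direction. The 4 with the largest differences were the nuclear receptor gene Rorb (-0.35), the vesicular transporter gene Slc17a8 (-0.31), the TCF factor Tcf7 (-0.29) and the netrin-G2 gene Ntng2 (0.27), with limma adjusted p-values of 0.435, 0.388, 0.498 and 0.440.

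Markers of neighbouring tissue were read in the same libraries. The summed back-transformed RPKM of the 9 members was between 35.4 and 46.0 in the Control libraries and was 77.2, 89.5 and 31.7 in MA replicates 1, 2 and 3. For 10 genes of the choroid plexus, the epithelium that makes cerebrospinal fluid, the sum was between 67.4 and 423 in Control and was 1786, 2318 and 5093 in MA replicates 1, 2 and 3. All 10 were higher in every MA library than in any Control library, as were 7.32% of all tested genes, and 5 passed the adjusted threshold in limma with a higher level in MA, as did 0.165% of all tested genes. The order of the MA libraries in this sum rested on Ttr, the transthyretin gene, which sat at the highest value of the table, 12.30, in MA replicate 3. All 6 libraries shared that highest value. The level of Ttr in MA replicate 3, and with it the sum of 5093, may therefore not be a measured amount. Without Ttr, a sum added after the values were seen, the other 9 genes summed to 41.9, 63.8 and 59.4 in MA replicates 1, 2 and 3. In Control they summed to between 9.74 and 12.4, so that MA replicate 2 had the highest sum. By single gene, Folr1, Kl and Clic6 were highest in MA replicate 2 and Prlr in MA replicate 1. Kcnj13, Sostdc1, Otx2, Aqp1 and Slc4a5 were highest in MA replicate 3. For 8 habenula genes, from the nucleus on the upper rim of the thalamus, the sum was 23.1, 22.6 and 57.6 in Control replicates 1, 2 and 3 and between 42.1 and 57.7 in MA. Control replicate 3, the highest Control library for most members, was thus also the highest Control library for habenula genes, and MA replicates 1 and 2 were the highest pair in 0 of the 8. The mean was higher in MA for 7 of the 8, and in 47.3% of all tested genes. Their median difference was 0.31 (all tested genes: -0.010). The part of these tissues in the differences of the members was not tested.

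The other lists differed less between the groups. The median difference was 0.046 over 8 tested striatal genes, 0.011 over 9 neocortical genes, 0.28 over 4 tested hypothalamic genes and -0.14 over 12 genes of hippocampal principal cells. For the cell types in which Tcf7l2 and Lef1 are also known, it was -0.20 over 8 genes of mature oligodendrocytes and 0.14 over 6 endothelial genes. None of these 6 lists nor the habenula list held a gene past the adjusted threshold in limma, and an unadjusted p under 0.05 was reached by 3 of their genes in the higher and 3 in the lower direction, 10.9% of the 55 tested, against 10.4% of all tested genes. The mature oligodendrocyte genes summed to 3274, 2772 and 3425 in MA replicates 1, 2 and 3 and to between 2970 and 3265 in Control. Their part in the level of Tcf7l2 was not tested. The endothelial genes summed to 201 and 180 in MA replicates 1 and 2 and to between 147 and 168 in the other 4 libraries. That is the highest pair of most members, at a smaller span. The part of endothelial genes in the level of Lef1 was not tested.

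**Figure D4:**
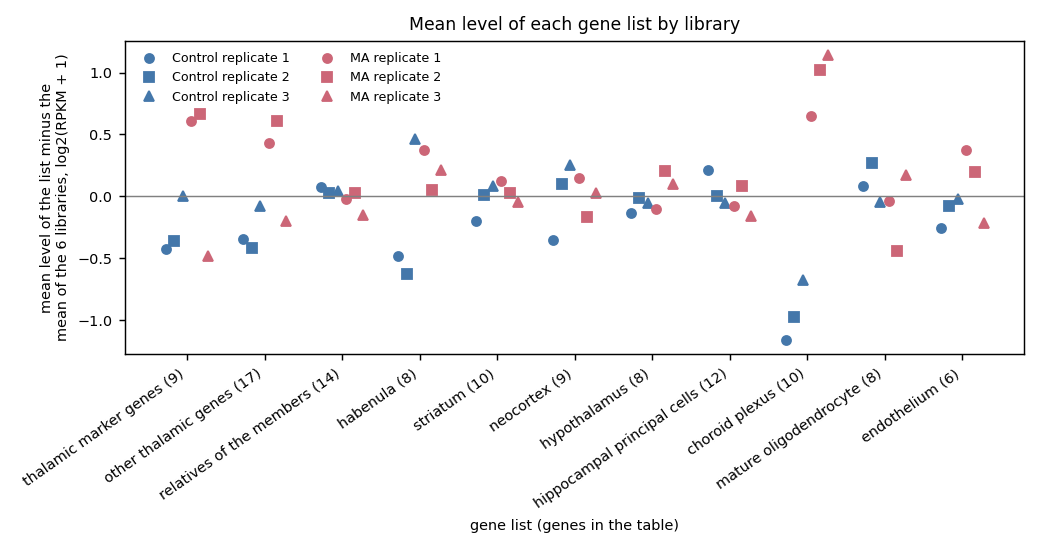
Mean log2(RPKM + 1) of each gene list in each library, minus its mean over the 6 libraries, for Control (blue) and MA (red), with the number of genes in brackets. The thalamic marker genes and the other thalamic genes are high in MA replicates 1 and 2 and not in MA replicate 3, whereas the choroid plexus genes are high in all 3 MA libraries and the habenula genes are high in Control replicate 3 as well.

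The genes whose profile was most like that of the members were sought by Pearson's r with the mean of the scaled members over the 6 libraries, among the 893 other tested genes whose values spanned at least 1 on the log2 scale. The points share libraries and normalization, and the r values are a description. Among the 10 closest genes, with r from 0.990 to 0.974, were Pabpc1l2b-ps, Pde11a, Caln1, Fam19a4, Amotl1, Sstr1, Fam205c, Cbln4 and Ccdc85c. Amotl1 is on the list of other thalamic genes, of which 8 spanned enough to be ranked. Amotl1 ranked 6 of the 893, Shox2 12, Tnnt1 26, Plekhg1 66, Zic1 74 and Calb2 183 (r = 0.76), whereas Zic4 ranked 398 (r = 0.29) and Cacna1g 413 (r = 0.25). Pde11a, a phosphodiesterase gene, was at 0.75, 0.73 and 1.12 in Control and at 1.89, 1.80 and 0.76 in MA on the log2 scale. Sstr1, a somatostatin receptor gene, was at 1.69, 1.74 and 1.93 in Control and at 2.88, 2.64 and 1.45 in MA. In both, MA replicate 3 was among or below the Control libraries, which their choice by likeness to the members favoured.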

How the data were processed

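Hippocampal RNA of 3 Control and 3 MA mice was sequenced, 1 library per mouse. According to the study's methods, Hisat2 aligned the read pairs, featureCounts assigned them to genes and counts became FPKM, whereas the submitters' processing notes name Bowtie 0.12.2 and the builds mm8 and mm9, so the build of the table is unclear. The 1 table the authors deposited holds log2 values, read as log2 of RPKM plus 1, brought to a common highest value by a step not described. Groups came from the sample titles. The members and lists were chosen with earlier results of these data known. The 13321 of 16060 genes that reached 0.5 (back-transformed) in 3 or more libraries were fitted with limma 3.58.1 in R 4.3.3 (eBayes with a trend, no covariate, Benjamini-Hochberg adjustment), tested on simulated data. P-values measure the spread between mice. Named genes were all 9 members, the listed thalamic genes and relatives past an adjusted p of 0.05 or else the 4 with the largest differences, and the 10 genes closest in profile, 1 of which is not reported here. Same-numbered libraries were not stated to be paired. Alternatives were other offsets, filters, normalizations and spread models, a replicate block, and leaving out each library. Promoters came from RefSeq on GRCm38.p6.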

Additional observations from a re-analysis of the deposited data

How the results depend on the processing

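The number of genes past the adjusted threshold over all tested genes, 35, was 3 with no filter, 20 with a minimum mean of 5, 586 with sample quality weights and from 0 to 257 with each library left out, the highest without MA replicate 3. It was within 1.5 times of 35 with offsets of 0.1 or 0.01, median centring, quantile normalization and no trend. The deposited values had already been brought to a common highest value. Median centring and quantile normalization could therefore change little, and how the count depends on normalization was not tested. With the replicate number as a block it was 15. After removal of the group means, libraries of like number correlated at -0.197, -0.242 and -0.337, so the numbers were not taken to pair the mice, and 0 of the other thalamic genes passed with the block, as without it. Of the other thalamic genes, 6 passed with sample quality weights (Tnnt1, Zic1, Zic4, Shox2, Calb2 and Patj) and 0 to 2 with a library left out. The median difference of the 9 members, 0.48, ran from 0.27 without MA replicate 1 to 0.91 without MA replicate 3. Of the single members, Rora turned to -0.014 without MA replicate 1 and ran up to 0.52 without MA replicate 3, and the cause was not tested. The depth of the libraries is unknown.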
